A study of Mus musculus with 4 samples.

Results

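The peaks described here are the ATAC-seq peaks of HEK293 cells that lie in the clusters of replication-dependent histone genes. They were chosen by position alone in GRCh38, on chromosome 6 from 26.0 to 27.9 Mb and on chromosome 1 from 149.83 to 149.9 Mb, with an overlap of at least 1 bp. The peak list holds 48751 peaks, of which 141 (0.289%) were in these places, 134 on chromosome 6 and 7 on chromosome 1. HEK293 is an established human cell line of embryonic kidney origin, and ATAC-seq marks open chromatin through the cuts of the Tn5 transposase. Of the 4 libraries, 2 came from cells given a scrambled TRAFTAC (a DNA-RNA hybrid that leads a degrader to the factor its DNA binds) and 2 from cells given the NFkB TRAFTAC. All cells were transfected for 6 h with a plasmid for a dCas9-HaloTag7 fusion together with 25 nM of the TRAFTAC. For the next 19 h they received 5 ng/mL of TNF-alpha, which activates NFkB, and 25 uM of HP14, a PROTAC directed against the HaloTag. The design text gives HP14 for all 4 libraries, while the treatment protocol also mentions DMSO without naming a sample. DNase was added shortly before harvest. Peaks were called on the merged libraries, so each value below is 1 pooled value. The TRAFTACs could not be compared, no replicate error exists, and no difference between regions was tested, since neighbouring peaks are not independent. Intervals are 95% confidence intervals, for counts and shares from counting error and for medians from the ordered values of the peaks. They do not give the range of the single peaks. They treat the peaks as independent and hold no error between libraries. The sample labels name the mouse, but 3163 peaks lie on chromosomes 20 to 22, which the mouse lacks. A GRCh38 gene annotation and sequence were not used here, so that no peak is assigned to a gene and the markers of the cell line were not examined.

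As background, histones package DNA into nucleosomes, which are built of the core histones H2A, H2B, H3 and H4 and joined by the linker histone H1. Their replication-dependent genes are small and intronless, stand close together, often as divergent pairs that share a promoter, and are transcribed in S phase when new chromatin is assembled. Most of the human copies are in the large cluster of chromosome 6, where many tRNA genes, read by RNA polymerase III, lie among them, and a smaller cluster is on chromosome 1. In the nucleus these genes gather in the histone locus body, where the factor NPAT, a substrate of the S phase kinase, drives their transcription.

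Counted as a whole, the histone region of chromosome 6 was dense in peaks, although not in each of its parts. Its 134 peaks in 1900 kb gave 70.5 peaks per Mb (exact Poisson interval 59.1 to 83.5), against 17.9 (17.3 to 18.6) in the rest of the chromosome, measured to its last peak. The ratio was 3.94 (exact interval 3.29 to 4.68). The region makes up 1.11% of the chromosome and held 4.24% of its peaks. Peaks covered 6.70% of its bases, compared to 1.25% elsewhere on the chromosome. Among the 1607 windows of 1900 kb that tile chromosomes 1 to 22 and X, assembly gaps included, 17 (1.06%) had as many peaks, and the median window had 21.

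The density dropped at both borders, but the wider flanks differed. The 1900 kb before the region held 30 peaks, or 15.8 per Mb (10.7 to 22.5), and each of its 100 kb bins had at most 3. The first 100 kb of the region had 7. On the other side, the next 1900 kb held 87 peaks, or 45.8 per Mb (36.7 to 56.5), with the counts falling from 10 in the last 100 kb of the region to 1 just after it and rising again to 15 farther on. The density of the histone region was 4.47 times that of the flank before it (2.99 to 6.88) and 1.54 times that of the flank after it (1.17 to 2.04).

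**Figure D1:**
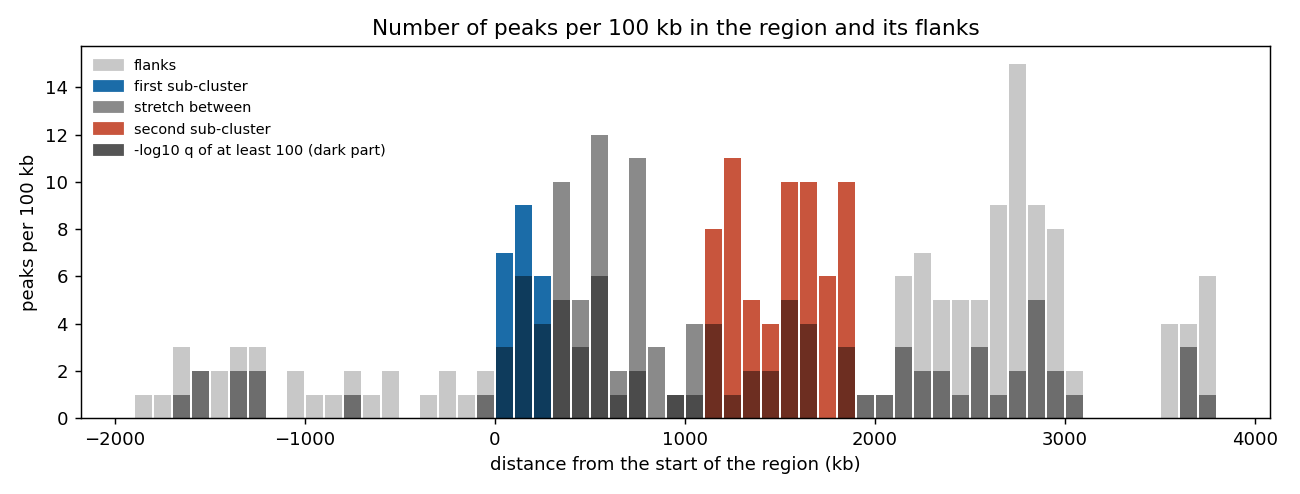
Number of peaks with their summit in each 100 kb bin (y axis) against the distance from the start of the chromosome 6 region (x axis, kb), with the flanks in light grey and the dark part of each bar counting peaks whose −log10 q-value reached 100. The bins of the region hold 1 to 12 peaks, and the flank before it holds at most 3 per bin.

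Within the region, the stretch between the sub-clusters was not a gap. The first sub-cluster, from 26.0 to 26.3 Mb, held 22 peaks or 73.3 per Mb (46.0 to 111). The second, from 27.1 to 27.9 Mb, held 64 peaks or 80.0 per Mb (61.6 to 102). The 800 kb between them held 48 peaks or 60.0 per Mb (44.2 to 79.5). The first sub-cluster was 1.22 times (0.703 to 2.06) and the second 1.33 times (0.903 to 1.98) as dense as the stretch, and both intervals include 1. Each of these parts was far into the upper end of the genome. As many peaks were found in 2.64% of the windows of 300 kb, in 3.28% of those of 799 kb and in 1.00% of those of 800 kb, the sizes of the first sub-cluster, the stretch and the second sub-cluster.

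The stretch itself was uneven, and the borders of the sub-clusters did not follow the drop in density. Counted per 100 kb, the 19 bins of the region held between 1 and 12 peaks, with a median of 7. In 7 of the bins there were at least 10 peaks, a count reached in 1.40% of the 30311 windows of that size over the genome. In the stretch, the bins starting at 26.3, 26.5 and 26.7 Mb had such counts, with 10, 12 and 11 peaks. The bins starting at 26.6 and 26.8 Mb had 2 and 3 peaks, and 35.2% of the windows had at least 2. When the stretch was divided at 26.6 Mb, a position chosen after the counts were seen, its first part held 27 peaks or 90.0 per Mb (59.3 to 131), above the point values of both sub-clusters but with overlapping intervals. The remainder held 21 peaks or 42.0 per Mb (26.0 to 64.2). The peaks of the first part had a median width of 945 bp (609 to 1326) and a median −log10 q-value of 100.4 (55.5 to 138). Those of the remainder had medians of 566 bp (347 to 957) and 17.8 (12.4 to 95.5). The lowest bin, from 26.9 Mb, had 1 peak, which was the strongest of the stretch.

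The peaks of the histone region were wide and strong for this list. Their median width was 874 bp (order-statistic interval 773 to 1039), compared to 590 bp (585 to 595) over all peaks and 562 bp (537 to 579) in the rest of chromosome 6. The fold enrichment at the summit is the ratio of the fragments stacked there to a local background, and its median was 7.68 (6.47 to 8.43), against 5.60 (5.60 to 5.68) over all peaks. The −log10 q-value, a measure of how far the summit stands above the background given its fragments, had a median of 76.5 (59.1 to 97.5) against 23.3 (22.9 to 23.8). Over both chromosomes, 98 of the 141 peaks (69.5%) were wider than the median of all peaks, 98 had a higher fold enrichment and 110 (78.0%) a higher −log10 q-value.

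Strong peaks made up more of the region, and weak ones less, than in the whole list. On chromosome 6, 53 of 134 peaks (39.6%, Wilson interval 31.7% to 48.0%) reached a −log10 q-value of 100, against 21.5% of all peaks. A width of at least 1000 bp was seen in 57 peaks (42.5%, 34.5% to 51.0%), against 22.9% of all peaks. A fold enrichment of at least 10 was seen in 43 peaks (32.1%, 24.8% to 40.4%), against 21.8% of all peaks. The flanks were at least as high in this share, with 37.9% after the region and 33.3% before it. At the lower end, 14 peaks (10.4%, 6.33% to 16.8%) had a −log10 q-value under 10, against 29.0% of all peaks. The summit lay over 150 bp from the centre of the peak in 49 cases (36.6%, 28.9% to 45.0%), against 25.1% of all peaks. The first sub-cluster had 11 of 22. The flank after the region had 31.0% (22.3% to 41.4%), an overlapping interval. This share depends on width, since a peak under 300 bp cannot reach the limit. Such peaks made up 9.70% of the region and 14.4% of all peaks. The part of width in this share was not tested.

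These features were in part shared by the flank after the region, whose 87 peaks had a median width of 830 bp (703 to 881), a median fold enrichment of 8.09 (6.79 to 9.75) and a median −log10 q-value of 80.5 (46.3 to 92.2). All of these intervals overlap those of the histone region. The flank before it had medians of 584 bp (477 to 1032), 7.45 (5.60 to 10.2) and 35.6 (18.6 to 97.9) over its 30 peaks. A −log10 q-value of at least 100 was reached by 32.2% of the peaks in the flank after the region and 30.0% in the flank before it. Values under 10 made up 11.5% and 20.0%. The density intervals of the histone region lay above those of both flanks. For width and strength the intervals of the medians overlapped those of the flank after it, and no difference was tested. In that flank 28.7% of the peaks (20.3% to 39.0%) reached 1000 bp, against 42.5% (34.5% to 51.0%) in the region. A width of 2000 bp was reached by 1.15% (0.203% to 6.23%) against 5.97% (3.06% to 11.3%). These intervals overlap as well.

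**Figure D2:**
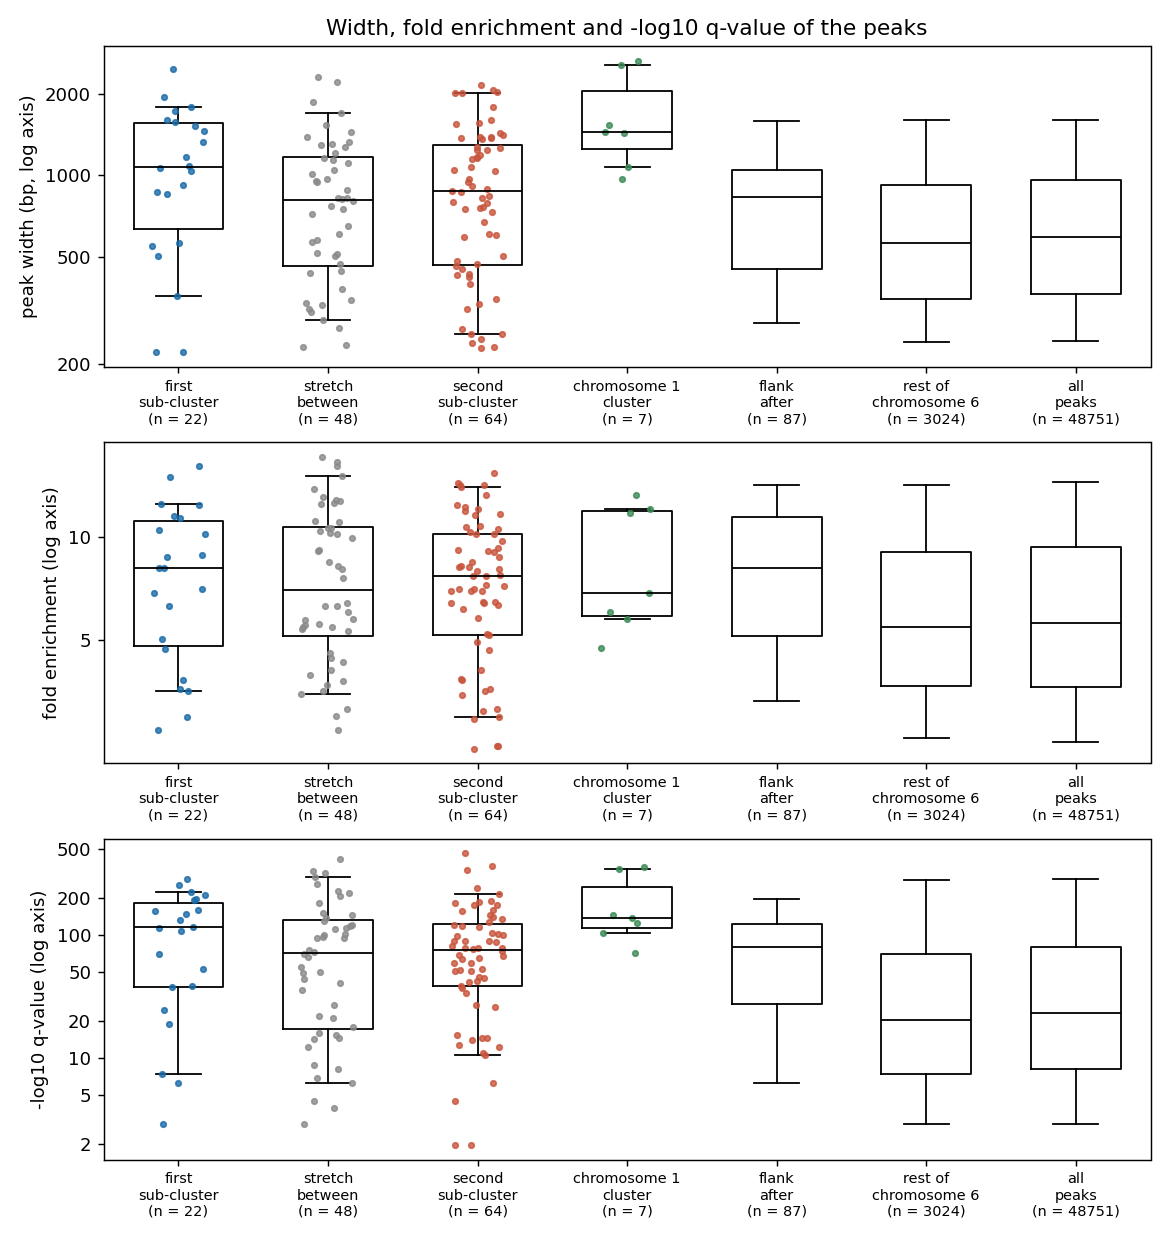
Width (bp), fold enrichment and −log10 q-value of the peaks, each on a log axis, by region, with boxes from the lower to the upper quartile, a line at the median, whiskers at the 5th and 95th percentiles and coloured points for the single histone cluster peaks. The median width is 1076 bp in the first sub-cluster and 1446 bp in the chromosome 1 cluster, against 590 bp over all peaks.

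The first sub-cluster had the widest and strongest typical peak of the parts of chromosome 6, with a median width of 1076 bp (560 to 1577), a median fold enrichment of 8.13 (4.71 to 11.3) and a median −log10 q-value of 116 (38.0 to 192), although its 22 peaks leave these intervals wide and they overlap those of the other parts. At least 1000 bp was reached by 13 of its 22 peaks (59.1%, 38.7% to 76.7%), against 22.9% of all peaks. The stretch had 35.4% (23.4% to 49.6%) and the second sub-cluster 42.2% (30.9% to 54.4%), with intervals that overlap that of the first. Its strongest peak, from 26188451 to 26189491, had a fold enrichment of 16.1, a −log10 q-value of 288 and 354 fragments at the summit. The next were from 26103513 to 26104577, with a fold enrichment of 14.9 and 330 fragments, and from 26216300 to 26217466, with a −log10 q-value of 225. The third highest fold enrichment, 12.5, was that of the peak from 26285132 to 26286590. Its widest peak, with 2478 bp from 26156260 to 26158737, was also the widest of the chromosome 6 region. Its summit lay to the right of its centre, at 26158098, and its fold enrichment was 7.04. Similarly, the peaks of 1950 bp from 26020350 and of 1793 bp from 26122861 had fold enrichments of 6.26 and 8.13. The weakest peak of this part, 560 bp from 26165476, had 19 fragments at the summit and a −log10 q-value of 2.91. The longest interval without a peak here was 37175 bp, after the peak ending at 26066337.

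In the stretch between the sub-clusters, single peaks were as strong as those of the sub-clusters. The highest fold enrichment of the whole chromosome 6 region, 17.1, belonged to a peak of 883 bp here, from 27019682 to 27020564. It was followed in this stretch by peaks from 26659330 to 26660301 (16.5) and from 26743163 to 26744119 (16.0). The peak with its highest −log10 q-value, 420, from 26956108 to 26957119, stood 62562 bp from the next one. The peak from 26659330 was second on this scale too, with 332. The widest peaks of the stretch had 2316 bp, from 26311373 to 26313688, and 2219 bp, from 26553242 to 26555460, with fold enrichments of 9.91 and 6.26. The stretch also held the only peak of the region whose background was over 10 times that of the genome as a whole. This peak, from 26536835 to 26538709, was 1875 bp wide, with 593 fragments at the summit, a fold enrichment of 8.43 and a −log10 q-value of 324. Weak peaks with a −log10 q-value under 10 made up 7 of the 48 peaks here (14.6%), against 29.0% of all peaks. The first sub-cluster had 3 of 22 (13.6%) and the second 4 of 64 (6.25%). The weakest peak of the stretch, 272 bp from 26720765, had 19 fragments at the summit and a −log10 q-value of 2.91. The longest interval without a peak in the region, 88258 bp, followed the peak ending at 26796368.

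The second sub-cluster had the strongest peak of all, from 27250953 to 27252108, with a −log10 q-value of 465, 640 fragments at the summit and a fold enrichment of 13.3. This −log10 q-value was above that of 98.9% of all peaks in the list. Next were the peaks from 27131523 to 27133592, with a −log10 q-value of 364 and a width of 2070 bp, and from 27472371 to 27473609, with 342 and 1239 bp. The highest fold enrichments of this part were 15.3, from 27864775 to 27865722, and 14.4, from 27495062 to 27496433, followed by 14.1 for the peak from 27472371. A width of at least 2000 bp was seen in 8 of the 134 peaks of the region (5.97%, Wilson interval 3.06% to 11.3%), against 1.80% of all peaks and 1.92% in the rest of chromosome 6. Of these 8 peaks, 5 were in the second sub-cluster, the widest with 2167 bp from 27836875 to 27839041 and the third widest with 2031 bp from 27229842 to 27231872. Peaks of intermediate strength, between 50 and 100 on the −log10 q scale, were frequent. They made up 22 of the 64 peaks of the sub-cluster (34.4%), against 12.1% of all peaks. In the flank after the region they made up 24 of 87 (27.6%), so that this was not particular to the sub-cluster. The sub-cluster was interrupted by 83042 bp without a peak, between 27389328 and 27472371, with a strong peak on either side of this interval. Its weakest peaks were a tie of 2, 230 bp wide from 27485207 and 248 bp wide from 27721214, each with 17 fragments at the summit and a −log10 q-value of 1.97.

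**Figure D3:**
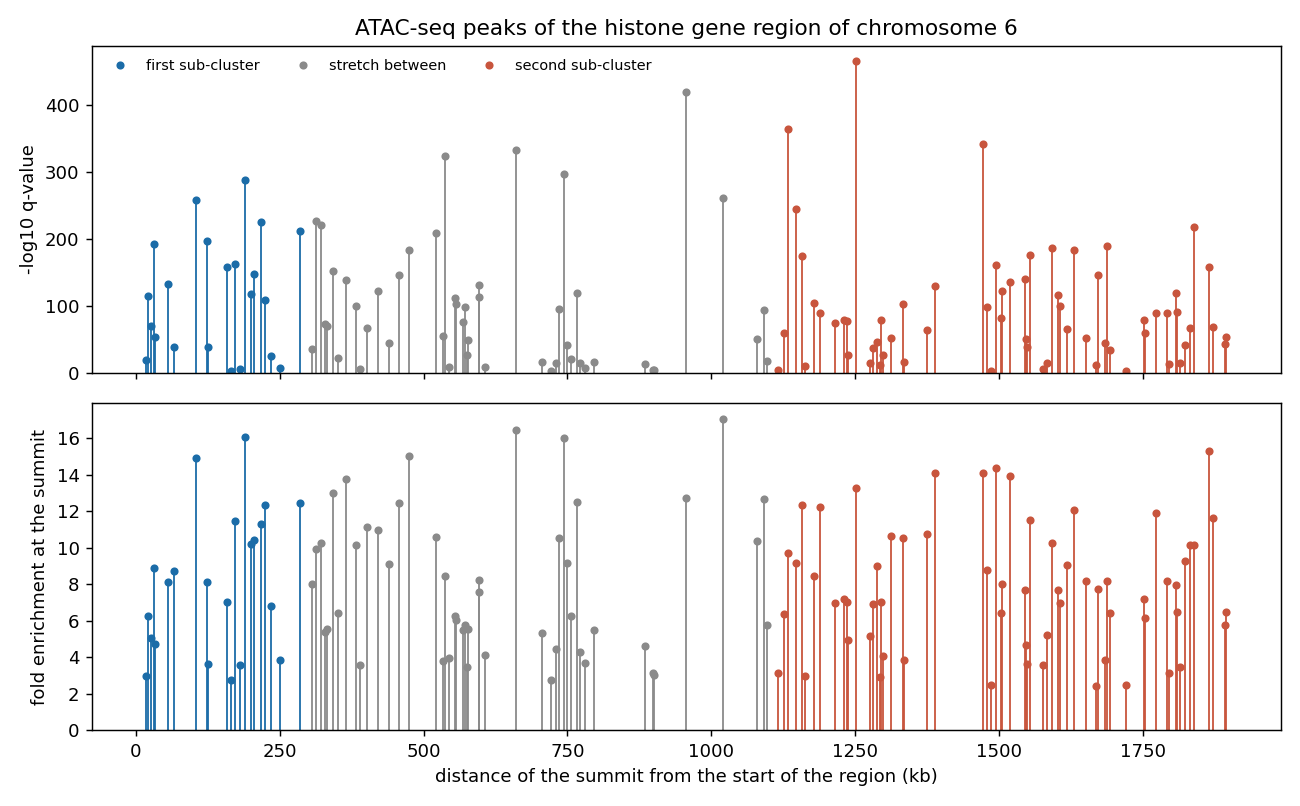
−log10 q-value (top) and fold enrichment at the summit (bottom) of the 134 peaks of the chromosome 6 region against the distance of the summit from the start of the region (kb), coloured by part. The −log10 q-values reach 465 in the second sub-cluster, and the highest fold enrichment, 17.1, lies in the stretch between the sub-clusters.

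Neighbouring peaks were separated by a median of 9093 bp (6662 to 10702) in the chromosome 6 region, compared to 18518 bp (18194 to 18839) over all peaks and 20154 bp (18602 to 21585) in the rest of the chromosome. The flank after the region had a median gap of 8813 bp (6174 to 13667), so that this spacing was not particular to the histone region. The medians of the parts were close together, with 7939 bp in the first sub-cluster, 9338 bp in the stretch and 8700 bp in the second sub-cluster. Of the gaps, 66.7% in the first and 57.1% in the second sub-cluster were under 10 kb. The stretch between them had 53.2%, the flank after the region 52.3% and all peaks 33.7%. Under 20 kb the shares were 81.0% in the first sub-cluster, 85.1% in the stretch and 84.1% in the second sub-cluster. Gaps under 2 kb made up 17 of 133 (12.8%) in the region against 10.5% in the flank after it and 8.02% over all peaks. By part, they made up 10 of 63 (15.9%) in the second sub-cluster, 9.52% in the first and 10.6% in the stretch. Several of these close peaks formed pairs of unequal strength, such as the peaks from 26031697 to 26034057, separated by 568 bp, with −log10 q-values of 192 and 53.3. Others were nearly equal, as in the pair from 26594873 to 26597353, separated by 268 bp, with fold enrichments of 7.60 and 8.21. A run of 3 peaks spanned 27545220 to 27548796, with fold enrichments falling from 7.67 to 4.68 and 3.60 along the chromosome.

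Over the chromosome 6 region taken as a whole, the local background was higher and the fold enrichment lower where the peaks crowded. The background, which the fold enrichment and p-value together determine, had a median of 19.0 fragments (14.6 to 21.5) in the chromosome 6 region, against 8.56 (8.48 to 8.64) over all peaks and a genome-wide value of 6.32. At least 1 other peak lay within 5 kb of the summit for 61 of the 134 peaks (45.5%), against 42 of 87 (48.3%) in the flank after the region and 27.4% over all peaks. These 61 peaks had a median background of 27.3 fragments (21.3 to 31.3), a median of 161 fragments (153 to 195) at the summit and a median fold enrichment of 6.14 (5.39 to 7.05). The 73 peaks without such a neighbour had a median background of 10.7 fragments (7.44 to 14.7), a median of 126 fragments (76 to 183) at the summit and a median fold enrichment of 9.91 (8.75 to 10.8). The intervals of the fold enrichments did not overlap between these sets, whereas those of the summit fragments did. By part, the fold enrichment intervals overlapped in the first sub-cluster and the stretch but not in the second sub-cluster. The order of the medians was the same in each. On chromosome 1 the median background was 42.6 fragments for the 5 peaks without a neighbour and 44.3 for the 2 with a neighbour. Fold enrichment is the summit over the background, so that the lower fold enrichment is not a separate measurement from the higher background. The same order of fold enrichments was seen in the flank after the region, with 6.29 and 10.4, and over all peaks, with 4.23 and 6.49. The part of the crowding in these values was not tested.

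Fold enrichment and −log10 q-value, both computed from the summit fragments and the background, rose together across the peaks of the region. Across the 134 peaks, Spearman's rho between fold enrichment and −log10 q-value was 0.81, and it was 0.95 across the 3024 peaks of the rest of chromosome 6. Fold enrichment and background had a rho of 0.09 in the region and 0.46 in the rest. These peaks share their libraries and, where they are neighbours, their background. Among peaks with a −log10 q-value from 50 to 100, the 33 of the region had a median background of 21.1 fragments (11.3 to 27.3), against 11.7 (11.5 to 11.9) for all 5892 peaks of that class. At a given −log10 q-value a higher background goes with a lower fold enrichment by construction, and the medians of 7.05 and 9.29 restate this difference. The 33 peaks also had a median width of 1071 bp against 864 bp, but the interval for the region, 751 to 1369 bp, includes the latter.

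**Figure D4:**
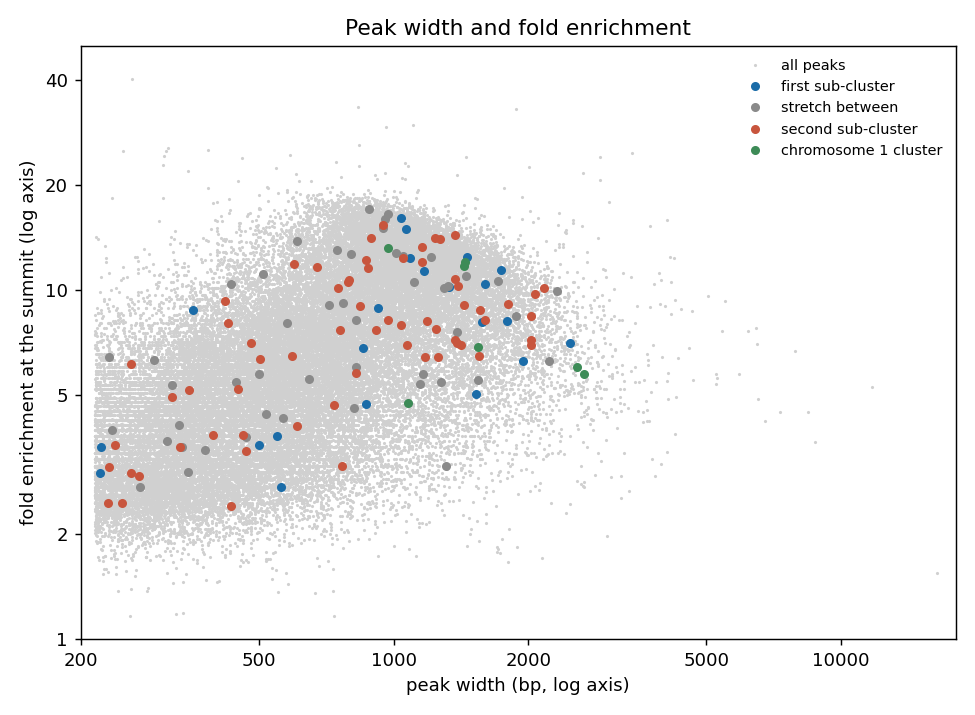
Fold enrichment at the summit against peak width (bp), both on log axes, for all 48751 peaks (grey) and for the histone cluster peaks coloured by part. The 2 widest chromosome 1 peaks, of 2567 and 2666 bp, lie at fold enrichments of 6.03 and 5.75.

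On chromosome 1, the 7 peaks of the smaller cluster were wide, with widths from 973 to 2666 bp and a median of 1446 bp, and all but the peak from 149887577 to 149888653 had a −log10 q-value over 100. They covered 16.6% of the 70 kb. Of the windows of 70 kb over the genome, 1.87% held as many peaks. The local background was between 42.1 and 53.3 fragments for 6 of the peaks and 9.61 for the last, which runs from 149899125 to 149900097 past the end of the cluster and had the highest fold enrichment, 13.2. The others had fold enrichments from 4.75 to 12.1. The peaks from 149885669 to 149887209 and from 149887577 to 149888653 were only 367 bp apart, with widths of 1541 and 1077 bp, fold enrichments of 6.87 and 4.75 and −log10 q-values of 147 and 71.7. The largest gap of the cluster, 23791 bp, lay before this pair.

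The first 4 peaks of this cluster were arranged as a mirror image. The outer ones, from 149831917 to 149833354 and from 149860432 to 149861877, were 1438 and 1446 bp wide, with fold enrichments of 11.7 and 12.1 with −log10 q-values of 346 and 358, and with 511 and 519 fragments at the summit. The inner ones, from 149840743 to 149843309 and from 149850485 to 149853150, were 2567 and 2666 bp wide, with fold enrichments of 6.03 and 5.75 and with 325 and 311 fragments. The gap between the outer and the inner peak was 7388 bp on the left and 7281 bp on the right. Even the summits were mirrored. Around the midpoint of the 4 peaks, the inner summits lay 5752 bp to the left and 5768 bp to the right, each near the outward end of its peak, and the outer summits 14148 and 14263 bp away. Counting error on the summit fragments is larger than the difference within either pair.

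Of 48523 runs of 4 consecutive peaks in the list, 30 were mirrored in their widths and gaps to within 10%, and 4 were also mirrored in their fold enrichments, the run of this cluster included. The pattern and its tolerance were chosen after the values were seen. As background, this part of the human genome is known to carry near-identical copies of histone genes in opposite orientation. Reads from such copies are hard to assign to one of them. Whether the similar values of these pairs come from shared reads was not tested, and a filter on mapping quality is not given in the sources used here, so that the values of the single copies are uncertain.

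**Figure D5:**
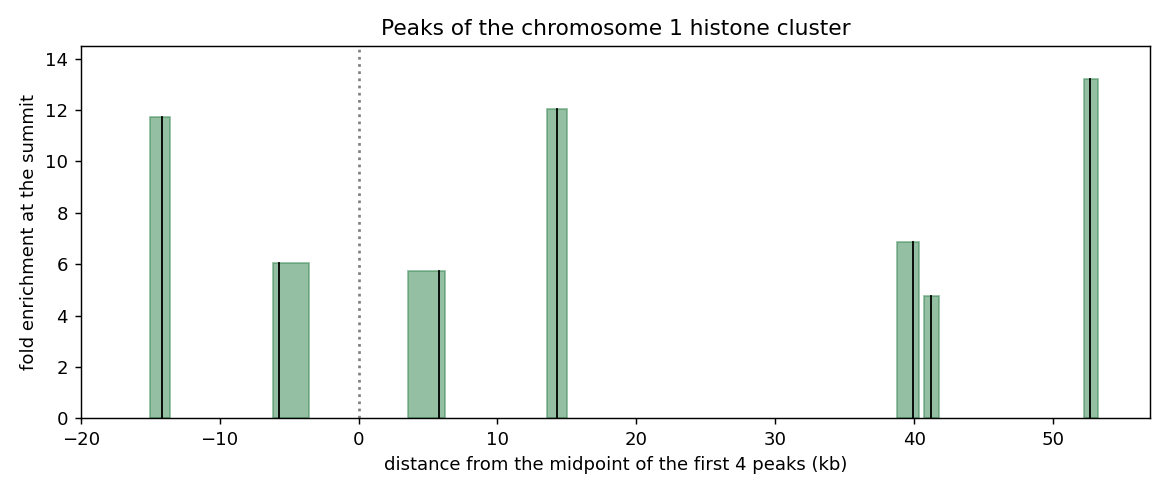
Peaks of the chromosome 1 cluster as boxes of their true width, with the fold enrichment at the summit (y axis) against the distance from the midpoint of the first 4 peaks (x axis, kb) and a black line at each summit. The outer peaks reach 11.7 and 12.1 and the inner ones 6.03 and 5.75 on either side of the dotted midpoint.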

How the data were processed

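ATAC-seq was measured in 4 HEK293 libraries, 2 per TRAFTAC (25 nM), from 50000 cells each. According to the submitters' processing notes, the authors used Trimmomatic, Bowtie2, Picard and MACS2 with GRCh38.p10. The methods state that blacklisted peaks were removed, but whether this holds for the deposited list was not examined. The authors deposited 1 list called on the merged libraries, with a score, the fold enrichment as a linear ratio, the −log10 p-value and the −log10 q-value of each peak. Columns of single samples number 0, and the depth per library is unknown from the list.

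Positions were converted to 1-based coordinates and peaks assigned to regions by an overlap of at least 1 bp. Densities have exact Poisson intervals, medians order-statistic intervals, and shares Wilson intervals (95%). Density ratios have exact binomial intervals. Summit fragments and background were recovered from the fold enrichment (pseudocount 1) and the p-value under a Poisson distribution with a misfit of at most 0.001, which succeeded for all 141 peaks. The search was tested on simulated data. Python 3.11.15, numpy 2.4.6, pandas 2.3.3, scipy 1.17.1 and matplotlib 3.10.9 were used.

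The regions, lists and tests were chosen with earlier results of these data known. Peaks are named by rule: in each part the 3 with the highest −log10 q-value, the 3 with the highest fold enrichment, the 3 widest, the weakest and the largest gap. Members of close pairs, the tied weakest peak of the second sub-cluster and of the mirrored run were chosen after their values were seen. The planned analyses of histone families, tRNA genes, other genes, promoter motifs and markers were not run, because GRCh38 sequence and annotation were not used here and the reference at hand was that of the mouse.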

Additional observations from a re-analysis of the deposited data

How the results depend on the processing

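For the chromosome 6 region, its 3 parts and the chromosome 1 cluster, 60 values were recomputed under alternatives. All 20 medians and 5 densities for peaks reaching a −log10 q-value of 5, the 5 densities with peaks assigned by their summit, and the 15 medians without peaks on a background of 10 times the genome-wide level or more stayed within the interval of the reported median or within 1.5 times the reported density. So did the 15 values with both sub-clusters extended by 100 kb into the stretch between them, which then held 32 and 68 peaks and left 34 to the stretch, an alternative chosen after the data were seen. The largest change was in the median −log10 q-value of the stretch between the sub-clusters, from 71.6 to 61.2 with the extended sub-clusters. The median fold enrichment of the stretch ranged from 6.14 with the extended sub-clusters to 8.04 with the stricter q-value. Several of these values could hardly move. Assignment by summit left every count of peaks as it was. The background limit removed only 1 peak, from the stretch, and all 7 peaks of chromosome 1 passed the stricter q-value. Such unchanged values are no evidence of stability. Many of the intervals are wide, above all for the 7 peaks of chromosome 1, and a value within them is weak evidence of stability. Leaving out single replicates was not run, and no paired analysis was possible because all libraries were merged before the peaks were called. Alternatives for gene starts were not run without an annotation. The pooled depth limits the weak end, where the smallest summit had 17 fragments in the region.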
